A study of Mus musculus with 8 samples.

Results

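Claudins are the membrane proteins of the tight junction that decide which ions, and how much water, pass between neighbouring epithelial cells. Each tubule segment of the kidney carries its own set, in which some members form charge-selective pores and others seal the junction. The set a segment makes fixes how sodium, chloride, calcium and magnesium move between its cells. The 10 genes described here are claudins usually assigned to kidney structures. They are Cldn1 of the parietal epithelium of Bowman's capsule, Cldn5 of the endothelium, Cldn2 of the proximal tubule, Cldn10 of the proximal tubule and thick ascending limb, Cldn14, Cldn16 and Cldn19 of the thick ascending limb, and Cldn3, Cldn4 and Cldn8 of the distal nephron and collecting duct. They were picked by gene symbol. All 10 were found in the tables, which hold 47729 genes, 25 further claudin genes and pseudogenes among them.

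RNA was sequenced from whole kidneys of mice on postnatal day 8. There were 4 libraries from Six2Cre+KCTD1fl/fl mice, called knockout here, and 4 from control littermates, called wildtype. Six2-driven Cre acts in nephron progenitors, so collecting duct and vessels lie outside the lineage it targets. The labels do not say whether the controls carried floxed alleles or Cre. They also do not say that each library came from its own animal, so the p-values reflect only how these libraries vary, which may be technical.

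Libraries held 14457760 to 20741076 counts. Kctd1, the deleted gene, was present at 22.4 to 25.8 CPM in knockout kidneys and 28.9 to 32.6 CPM in wildtype kidneys, with no overlap (CPM, counts scaled to library size with edgeR's TMM factors). Its log2 fold change of -0.38 ± 0.09 did not pass with the edgeR quasi-likelihood test (adjusted p = 0.279) or limma-voom (adjusted p = 0.258). It passed with DESeq2 (adjusted p = 0.0158). The labels do not give the exons removed. Of 18548 genes tested, 15 passed an adjusted p of 0.05, which is 0.0809% (edgeR quasi-likelihood test, two-sided, with p-values adjusted by Benjamini-Hochberg over all genes, here and below). Knockout 2 had 5.4% of its counts on ribosomal RNA, against at most 1.1% in the others, and knockout 2 and wildtype 3 alone were rich in Xist. Knockout 1 had 478 CPM of the collecting duct water channel gene Aqp2, against 149 to 202 CPM in the other 7 libraries.

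No claudin of the 10 passed the threshold with edgeR, DESeq2 (which gave Cldn14 no adjusted p) or limma-voom. At an unadjusted edgeR p under 0.05 there were 2, Cldn1 and Cldn14, both higher in knockout, and 6.18% of all tested genes reach that level. The same 2 had groups that did not overlap, which held for 4.03% of all tested genes, 1.97% with knockout higher and 2.06% with knockout lower. The log2 fold changes of the 10, knockout over wildtype, had a median of 0.10, with 6 above and 4 below 0. Over all tested genes the median was 0.00, and 50.3% lay above 0. The median size of the log2 fold change, sign aside, was 0.15 for the claudins and 0.11 for all tested genes.

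**Figure D1:**
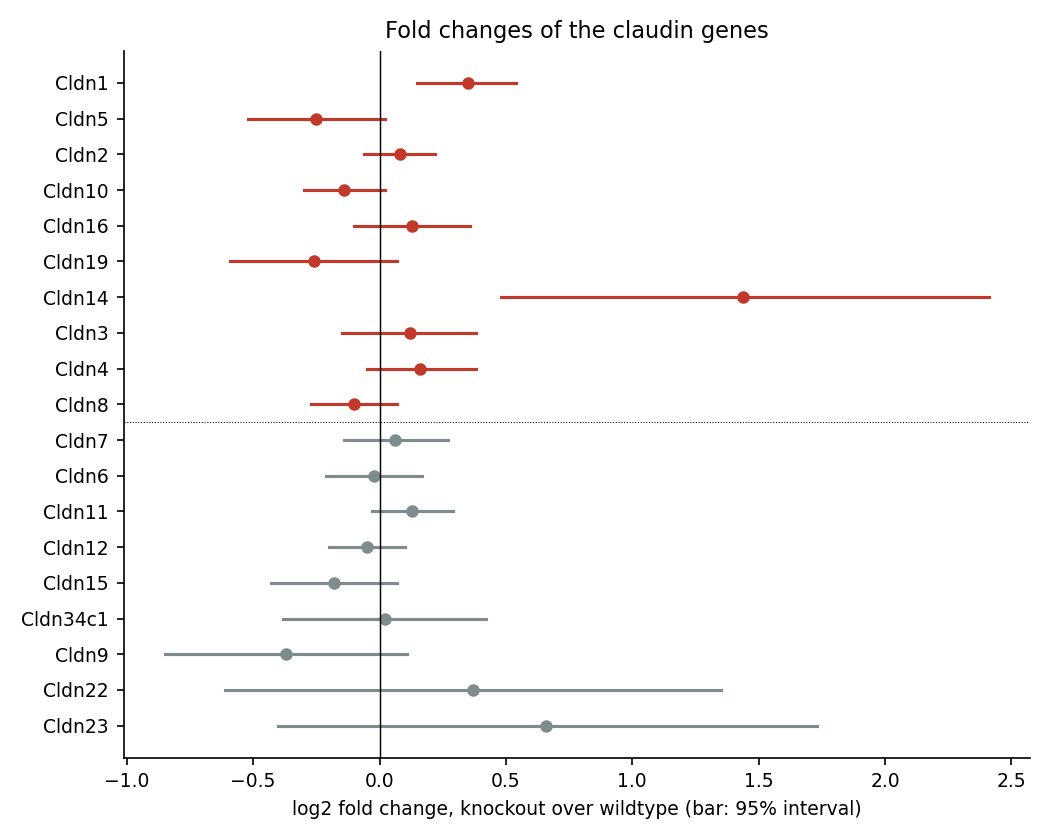
Log2 fold change (knockout over wildtype, points) with its 95% interval (bars) for the 10 kidney claudins and the 9 other claudin genes with enough counts to be tested. Among the 10, the intervals of Cldn1 (0.15 to 0.54) and Cldn14 (0.48 to 2.41) exclude 0.

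Levels of different claudins can be set side by side only per transcript length, as TPM, and are given here in the order of the mean over all 8 libraries. Cldn10 averaged 61.3 ± 11.3 TPM in the knockout and 73.7 ± 3.09 TPM in the wildtype (SD, n = 4 each). Cldn2 averaged 61.5 ± 10.8 TPM in knockout kidneys and 63.8 ± 3.98 TPM in wildtype kidneys. These pore-forming claudins were the highest of the 10, with Cldn10 above Cldn2 in 4 of 4 wildtype libraries and in 2 of 4 knockout libraries. Cldn8 averaged 29.2 ± 3.92 TPM in the knockout and 34.4 ± 4.25 TPM in the wildtype. Cldn5 averaged 27.6 ± 7.75 TPM in the knockout and 35.4 ± 0.816 TPM in the wildtype. Cldn19 averaged 21.9 ± 6.24 TPM in the knockout and 28.5 ± 3.24 TPM in the wildtype. Cldn8 lay above Cldn5 in 3 of 4 knockout libraries and in 2 of 4 wildtype libraries. Lower in the order stood Cldn4 (21.7 ± 5.05 TPM in the knockout and 21.1 ± 1.60 TPM in the wildtype) and Cldn16 (17.0 ± 3.93 TPM in the knockout and 16.9 ± 0.783 TPM in the wildtype). Cldn3 averaged 8.44 ± 2.01 TPM in the knockout and 8.41 ± 0.542 TPM in the wildtype, and Cldn1 5.76 ± 0.622 TPM in the knockout and 4.99 ± 0.390 TPM in the wildtype. Cldn14 was lowest, at 0.422 ± 0.129 TPM in the knockout and 0.156 ± 0.0842 TPM in the wildtype. In wildtype kidneys only the neighbours Cldn8 and Cldn5 overlapped in this order. In knockout kidneys overlap was found for Cldn10 with Cldn2, Cldn8 with Cldn5, Cldn5 with Cldn19, Cldn19 with Cldn4, Cldn4 with Cldn16, and Cldn3 with Cldn1.

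**Figure D2:**
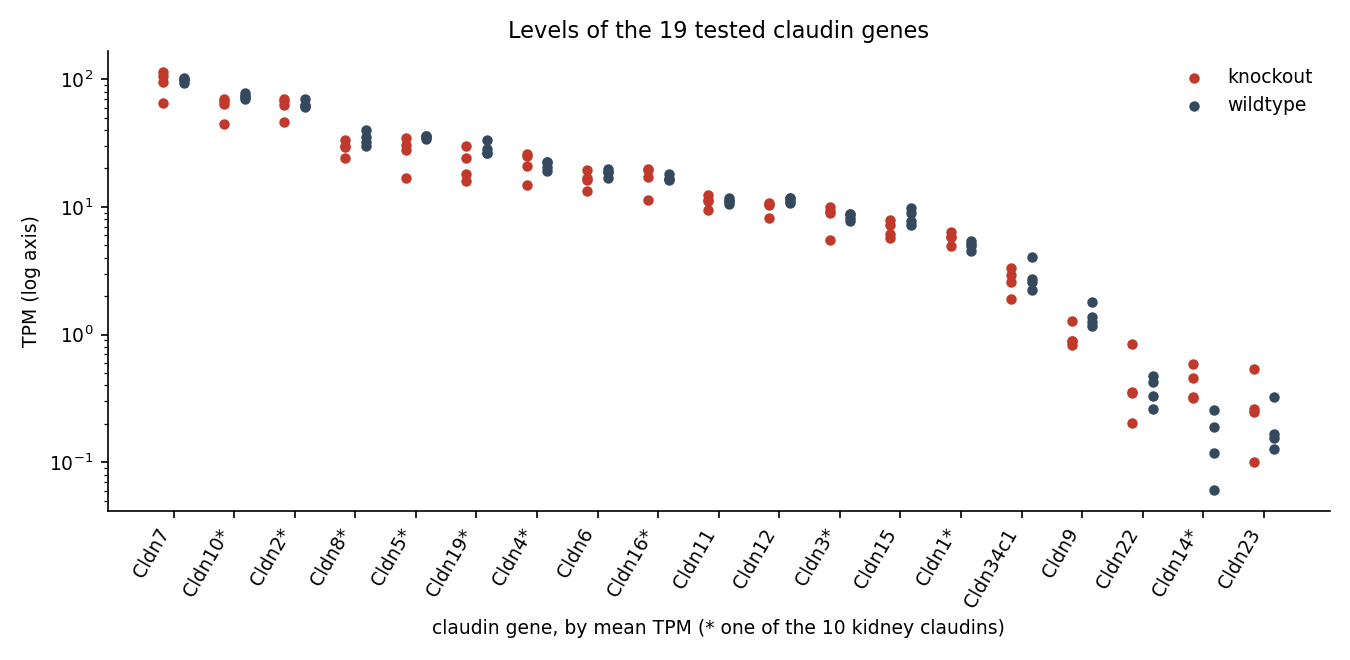
TPM per library on a log axis for the tested claudin genes, knockout and wildtype libraries side by side. Cldn10 and Cldn2 are the highest of the 10 kidney claudins, and Cldn14 lies below 1 TPM in every library.

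The 10 claudins summed to 283, 184, 268 and 284 TPM in knockout 1 to 4 and to 285, 278, 290.3 and 296 TPM in wildtype 1 to 4. As CPM the sums were 1026, 889, 948 and 960.1 for knockout 1 to 4, with 952, 983, 987 and 967 for wildtype 1 to 4. Knockout 2, the library rich in ribosomal RNA, was lowest on either scale and far lower in TPM. For this reason single genes are compared between libraries in CPM.

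Shares of the summed claudin TPM do not depend on how libraries are scaled. Cldn2 made up 24.2 ± 0.884% of it in knockout and 22.2 ± 0.871% in wildtype, and Cldn10 24.1 ± 1.37% in knockout and 25.7 ± 1.22% in wildtype. The shares of Cldn1, Cldn4 and Cldn14 did not overlap between the groups, a description with no counterpart over all genes, and Cldn4 overlapped in CPM. Cldn1 held 2.06% to 2.67% across the knockout and 1.56% to 1.91% across the wildtype libraries. Cldn4 held 7.85% to 9.07% across the knockout and 6.70% to 7.74% across the wildtype libraries. Cldn14 held 0.115% to 0.208% across the knockout and 0.0213% to 0.0858% across the wildtype libraries. The shares of the other 7 overlapped.

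Cldn1, a sealing claudin of the parietal cells that line Bowman's capsule and of other epithelia, had the smallest p of the 10. For Cldn1, knockout 1 to 4 held 39.6, 40.1, 36.7 and 34.4 CPM, and wildtype 1 to 4 held 32.2, 30.5, 27.1 and 28.9 CPM. Every knockout library lay above every wildtype library, with 2.19 CPM between the nearest. The knockout mean was 37.7 ± 2.68 CPM and the wildtype mean 29.7 ± 2.18 CPM (SD, n = 4 each), a 1.27-fold difference with a 95% interval of 1.11 to 1.46. On the log2 scale the change was 0.35 ± 0.09 (SE), which did not pass (edgeR quasi-likelihood test, adjusted p = 0.354). Over 21 alternatives the adjusted p ran between 0.0545, with DESeq2, and 0.778.

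Of 5 other genes known from parietal cells 0 passed with edgeR or DESeq2. Their median log2 fold change was 0.03, with 3 above and 2 below 0. At an unadjusted edgeR p under 0.05 there was 1 of the 5, the adhesion molecule gene Vcam1, beside 6.18% of all tested genes. Vcam1 stood at 38.1 to 45.4 CPM in knockout kidneys and 28.5 to 36.8 CPM in wildtype kidneys (log2 fold change 0.34 ± 0.10). The 5 genes summed to 444 to 578 CPM in knockout kidneys and 404 to 518 CPM in wildtype kidneys, with overlap. Their part in the Cldn1 value was not tested.

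Cldn1 lies on the minus strand of chromosome 16 from 26356642 to 26371841 (GRCm38), 91293 bases from Cldn16 on the plus strand, from 26463135 to 26482765. The start windows of this pair are shown because the genes are neighbours that point away from each other, and the groups separated for Cldn1 and overlapped for Cldn16. The RefSeq windows (GRCm38.p6) run from 250 bases before to 50 after the annotated start, 5′ to 3′ on the gene's strand, at chr16:26371790-26372089 (minus) and chr16:26462885-26463184 (plus). Capitals mark matches to GCCNNNGGC, a binding motif of AP-2 transcription factors, which the KCTD1 protein is known to inhibit.
Cldn1: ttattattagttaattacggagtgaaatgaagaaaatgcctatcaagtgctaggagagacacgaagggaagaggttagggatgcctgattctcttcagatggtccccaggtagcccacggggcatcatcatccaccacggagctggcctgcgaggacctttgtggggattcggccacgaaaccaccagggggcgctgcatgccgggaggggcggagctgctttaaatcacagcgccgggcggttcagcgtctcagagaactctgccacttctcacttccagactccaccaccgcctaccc
Cldn16: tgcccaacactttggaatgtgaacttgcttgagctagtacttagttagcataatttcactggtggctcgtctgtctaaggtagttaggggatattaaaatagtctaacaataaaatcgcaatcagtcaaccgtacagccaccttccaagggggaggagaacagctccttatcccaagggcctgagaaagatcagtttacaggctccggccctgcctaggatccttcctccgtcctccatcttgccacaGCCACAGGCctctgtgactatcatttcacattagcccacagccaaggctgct
The motif reads the same on both strands. It stood once in the Cldn16 window and once in the Cldn3 window, so that 2 of 13 windows of the 9 claudins with a RefSeq entry held it (15.4%), against 16.6% of 32851 windows of all genes. A match describes letters and is no evidence of binding.

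**Figure D3:**
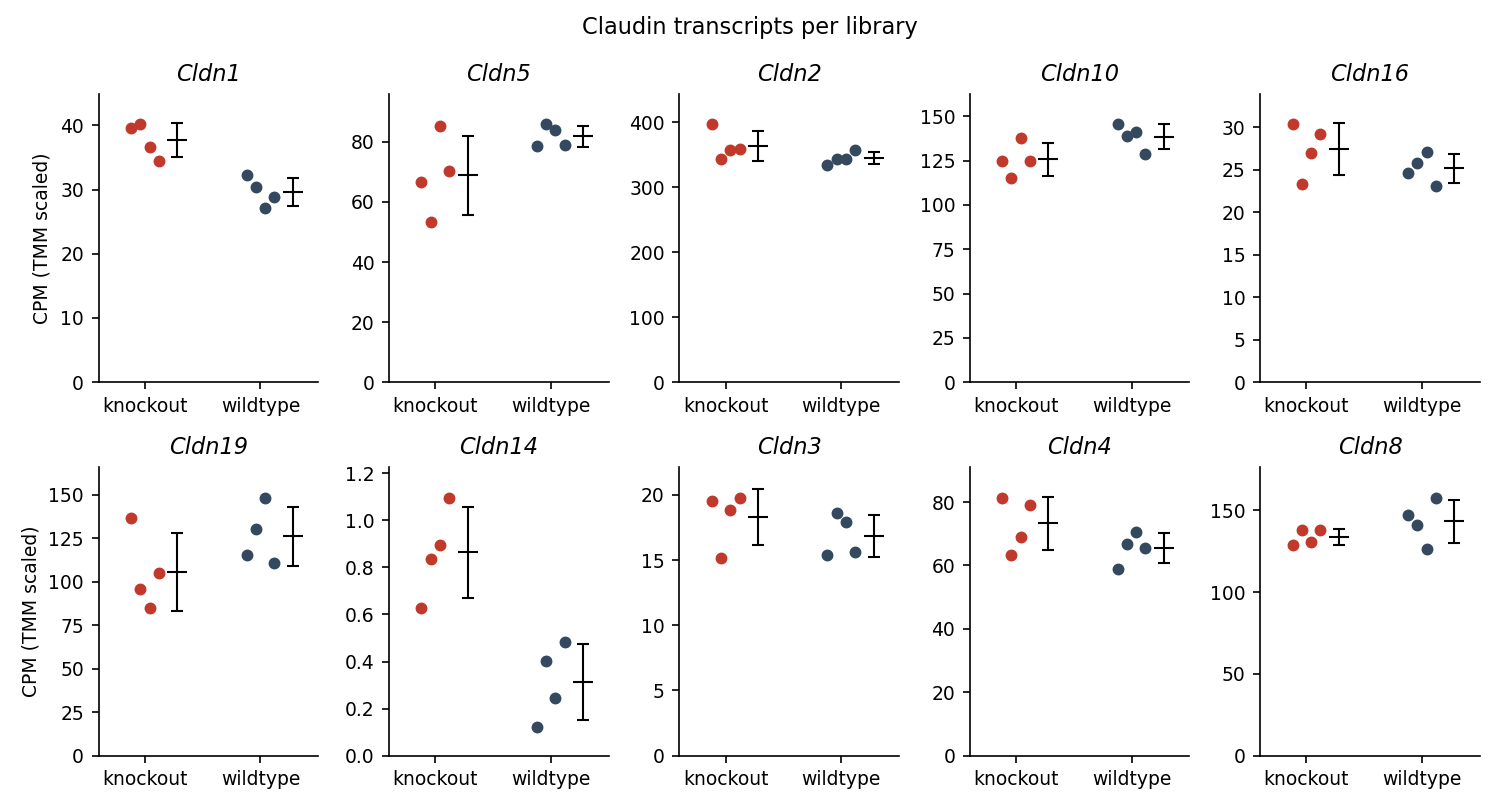
CPM in each library for the 10 kidney claudins, knockout at left and wildtype at right of each panel, with the mean and SD (n = 4 each). Each axis starts at 0, and the groups are apart for Cldn1 and Cldn14 and overlap in the other 8 panels.

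Cldn5 makes the tight junctions of endothelium, outside the lineage of the Cre, and lies on the plus strand of chromosome 16 from 18776847 to 18778262. For Cldn5, knockout 1 to 4 held 66.7, 53.4, 85.1 and 70.2 CPM, and wildtype 1 to 4 held 78.8, 85.8, 83.8 and 79.0 CPM. Knockout 3 lay within the wildtype range and the other 3 knockout libraries below it. The log2 fold change was -0.25 ± 0.12, with a 95% interval of -0.52 to 0.02 (edgeR quasi-likelihood test, adjusted p = 0.835), and -0.15 without knockout 2. Of 8 endothelial marker genes 0 passed, and 7 lay below 0 (median -0.11). They summed to 903 to 1048 CPM in knockout kidneys and 1009.7 to 1099 CPM in wildtype kidneys, and their part in the Cldn5 value was not tested. In whole kidneys fewer cells of a type and less RNA per cell cannot be told apart.

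In the proximal tubule Cldn2 forms the pore for sodium and water. For Cldn2, knockout 1 to 4 held 397, 343, 358 and 358 CPM, and wildtype 1 to 4 held 334, 344, 344 and 357 CPM. Knockout 1 stood highest and knockout 2 lay within the wildtype range, with knockout 3 and 4 just above it. The log2 fold change of 0.08 ± 0.06 had a 95% interval of -0.06 to 0.22, a fold between 0.957 and 1.16 (edgeR quasi-likelihood test, adjusted p = 0.925). That interval is the narrowest of the 10, from 24868 counts in knockout and 25071 in wildtype, and the log2 fold change was 0.03 without knockout 1. On unscaled TPM the sign turned, to -0.07, where the median of all tested genes was -0.14 (pseudocount 0.1). Cldn2 lies on the X chromosome from 139800828 to 139811386, and its log2 fold change was 0.10 without the libraries rich in Xist.

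Cldn10 encodes products of opposite selectivity from alternative first exons, an anion pore of the proximal tubule and a sodium pore of the thick ascending limb. For Cldn10, knockout 1 to 4 held 125, 115, 138 and 125 CPM, and wildtype 1 to 4 held 145, 139, 141 and 129 CPM. Knockout 3 alone reached the wildtype range. The knockout mean of 126 ± 9.18 CPM and wildtype mean of 139 ± 7.11 CPM gave a log2 fold change of -0.14 ± 0.07, with a 95% interval of -0.30 to 0.02 (edgeR quasi-likelihood test, adjusted p = 0.841).

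These gene totals add the Cldn10 products together. The gene spans 118787908 to 118875489 on the plus strand of chromosome 14, and its RefSeq starts lie 67079 bases apart. Both windows are shown because the total mixes starts of different base composition, with 36.0% G and C in the upstream window (chr14:118787621-118787920) and 72.0% in the downstream one (chr14:118854700-118854999). Neither holds the AP-2 motif, so they have no capitals.
Cldn10 upstream: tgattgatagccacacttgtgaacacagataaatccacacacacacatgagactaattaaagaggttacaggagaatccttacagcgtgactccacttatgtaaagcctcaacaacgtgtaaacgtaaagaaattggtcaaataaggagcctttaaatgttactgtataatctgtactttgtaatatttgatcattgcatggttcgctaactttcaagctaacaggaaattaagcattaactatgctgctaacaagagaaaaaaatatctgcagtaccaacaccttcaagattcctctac
Cldn10 downstream: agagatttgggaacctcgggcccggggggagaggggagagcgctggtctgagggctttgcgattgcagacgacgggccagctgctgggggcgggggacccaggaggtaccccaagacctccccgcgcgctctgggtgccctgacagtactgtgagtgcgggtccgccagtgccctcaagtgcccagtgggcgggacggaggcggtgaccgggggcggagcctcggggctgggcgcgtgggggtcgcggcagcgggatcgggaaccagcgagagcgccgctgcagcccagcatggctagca

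In the thick ascending limb Cldn16 and Cldn19 act together in calcium and magnesium reabsorption, and loss of either causes magnesium wasting in humans. For Cldn16, knockout 1 to 4 held 30.3, 23.3, 26.9 and 29.2 CPM, and wildtype 1 to 4 held 24.6, 25.8, 27.1 and 23.0 CPM. For Cldn19, knockout 1 to 4 held 137, 96.1, 84.8 and 105 CPM, and wildtype 1 to 4 held 115, 131, 148 and 111 CPM. Knockout 1 and 4 lay above the wildtype range for Cldn16, whereas knockout 2, 3 and 4 lay below it for Cldn19. The log2 fold change of Cldn16 was 0.13 ± 0.10 (95% interval -0.10 to 0.36, edgeR quasi-likelihood test, adjusted p = 0.925). It was 0.07 without knockout 1 and 0.20 without knockout 2, and its sign turned to -0.02 on unscaled TPM. That of Cldn19 was -0.26 ± 0.15 (95% interval -0.59 to 0.07, edgeR quasi-likelihood test, adjusted p = 0.854). Without knockout 1 it was -0.41, without knockout 3 or wildtype 3 -0.17. Cldn19 lies on the plus strand of chromosome 4 from 119255414 to 119262438.

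Cldn14 blocks the pore made by Cldn16 and Cldn19 and is known to be induced through the calcium-sensing receptor. For Cldn14, knockout 1 to 4 held 10, 15, 13 and 22 counts, and wildtype 1 to 4 held 2, 6, 5 and 10 counts. Scaled for depth, knockout 1 to 4 held 0.629, 0.834, 0.897 and 1.10 CPM, and wildtype 1 to 4 held 0.122, 0.401, 0.246 and 0.481 CPM. Every knockout library lay above every wildtype library, with 0.148 CPM between the nearest. The log2 fold change of 1.44 ± 0.43 had a 95% interval of 0.48 to 2.41, a 2.72-fold difference with bounds of 1.39 and 5.31, and missed the threshold (edgeR quasi-likelihood test, adjusted p = 0.547; 0.279 to 0.844 over 19 alternatives). The comparison rests on 60 counts in knockout and 23 in wildtype.

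Cldn14 spans 93919031 to 94008837 on the minus strand of chromosome 16, with 5 coding transcripts. Its most upstream RefSeq window (chr16:94008788-94009087, minus strand) is shown for the claudin with the largest fold change of the 10, and it holds no AP-2 motif.
Cldn14: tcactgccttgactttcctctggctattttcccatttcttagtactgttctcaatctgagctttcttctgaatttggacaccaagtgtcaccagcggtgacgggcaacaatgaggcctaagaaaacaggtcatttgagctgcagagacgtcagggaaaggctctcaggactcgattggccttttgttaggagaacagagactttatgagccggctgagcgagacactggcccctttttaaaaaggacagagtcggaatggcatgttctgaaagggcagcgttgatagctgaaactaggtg
Casr encodes the calcium-sensing receptor. For Casr, knockout 1 to 4 held 44.8, 33.9, 25.8 and 32.0 CPM, and wildtype 1 to 4 held 26.0, 25.0, 24.7 and 29.7 CPM. The groups overlapped, with a log2 fold change of 0.37 ± 0.15 (edgeR quasi-likelihood test, adjusted p = 0.734). Any part of Casr in the Cldn14 value was not tested.

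The sealing claudins Cldn3, Cldn4 and Cldn8 belong to the distal nephron and collecting duct, where Cldn4 and Cldn8 are known to form a chloride path together. For Cldn3, knockout 1 to 4 held 19.5, 15.1, 18.8 and 19.8 CPM, and wildtype 1 to 4 held 15.4, 18.6, 17.9 and 15.6 CPM. For Cldn4, knockout 1 to 4 held 81.3, 63.4, 69.1 and 79.2 CPM, and wildtype 1 to 4 held 59.0, 66.8, 70.5 and 65.6 CPM. Knockout 1 and 4 lay above every wildtype library for both genes. Knockout 3 lay just above the wildtype range for Cldn3 and within it for Cldn4. Knockout 2 lay below the wildtype range for Cldn3 and within it for Cldn4. The log2 fold change of Cldn3 was 0.12 ± 0.12 (95% interval -0.15 to 0.38, edgeR quasi-likelihood test, adjusted p = 0.939). It was 0.20 without knockout 2, and 0.08 without knockout 4, wildtype 1 or wildtype 4, and its sign turned to -0.02 on unscaled TPM. That of Cldn4 was 0.16 ± 0.10 (95% interval -0.05 to 0.38, edgeR quasi-likelihood test, adjusted p = 0.871). The pair lies 39279 bases apart on chromosome 5, Cldn4 from 134945119 to 134946934 and Cldn3 from 134986214 to 134987472.

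Cldn8 lies on the minus strand of chromosome 16 from 88560828 to 88563183. For Cldn8, knockout 1 to 4 held 129, 138, 130.4 and 138 CPM, and wildtype 1 to 4 held 147, 141, 127 and 158 CPM. All knockout libraries lay within the wildtype range. Its log2 fold change of -0.10 ± 0.08 had a 95% interval of -0.27 to 0.07, a fold between 0.831 and 1.05 (edgeR quasi-likelihood test, adjusted p = 0.924). It was -0.05 without wildtype 4.

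To set a claudin against the amount of its segment, its log2 ratio to a segment marker was compared in 8 pairs. The exact two-sided permutation test over 70 relabelings gives no p below 0.0286. Cldn14 relative to Slc12a1, the salt cotransporter gene of the thick ascending limb, was -9.98 ± 0.41 in the knockout and -11.51 ± 0.60 in the wildtype. The groups did not overlap, and the difference of 1.52 had an exact permutation p of 0.0286, the smallest possible, and 0.229 after adjustment over the 8 ratios. Cldn16 relative to Slc12a1 was -5.15 ± 0.18 in the knockout and -5.53 ± 0.15 in the wildtype, a difference of 0.38 with overlap (exact permutation p = 0.0571, adjusted 0.229).

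The ratios to Slc12a1 differed by 0.12 for Cldn10 and -0.01 for Cldn19, and that of Cldn2 to the endocytic receptor gene Lrp2 by 0.02 (exact permutation p = 0.343, 0.943 and 0.771). Cldn5 relative to the endothelial gene Pecam1 differed by -0.23 (exact permutation p = 0.114). The ratios to Aqp2 differed by -0.03 for Cldn4 and -0.29 for Cldn8 (exact permutation p = 1 and 0.771), and without knockout 1, the library high in Aqp2, by 0.29 and 0.11. Relative to Scnn1b, a sodium channel gene of the same cells, the differences were 0.05 for Cldn4 and -0.20 for Cldn8 (adjusted exact permutation p = 0.629 and 0.0571). The groups did not overlap in the ratio of Cldn8 to Scnn1b. After adjustment 0 of the 8 ratios passed. A ratio that alone has the smallest possible p cannot go below 0.229, and lower adjusted values need several ratios at that p.

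The marker chosen for the thick ascending limb sets the sign for Cldn10 and Cldn16. Slc12a1 averaged 977 ± 89.6 CPM in the knockout and 1167 ± 59.9 CPM in the wildtype. Umod, which encodes uromodulin of the same segment, averaged 1206 ± 96.3 CPM in the knockout and 831 ± 69.1 CPM in the wildtype. Relative to Umod the differences were -0.68 for Cldn10, -0.42 for Cldn16 and -0.81 for Cldn19 (each with an adjusted exact permutation p of 0.0571), and 0.73 for Cldn14 (adjusted 0.137). For Cldn10, Cldn16 and Cldn19 the groups did not overlap in this ratio, and the unadjusted p was the smallest possible. In CPM the groups overlapped for these claudins and did not overlap for Umod itself (log2 fold change 0.54 ± 0.08). Umod missed the threshold with edgeR (adjusted p = 0.0599) and passed with DESeq2 (adjusted p = 1.33e-06) and limma-voom (adjusted p = 0.0408). Each of these ratios includes the difference in Umod, and its part in them was not tested.

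**Figure D4:**
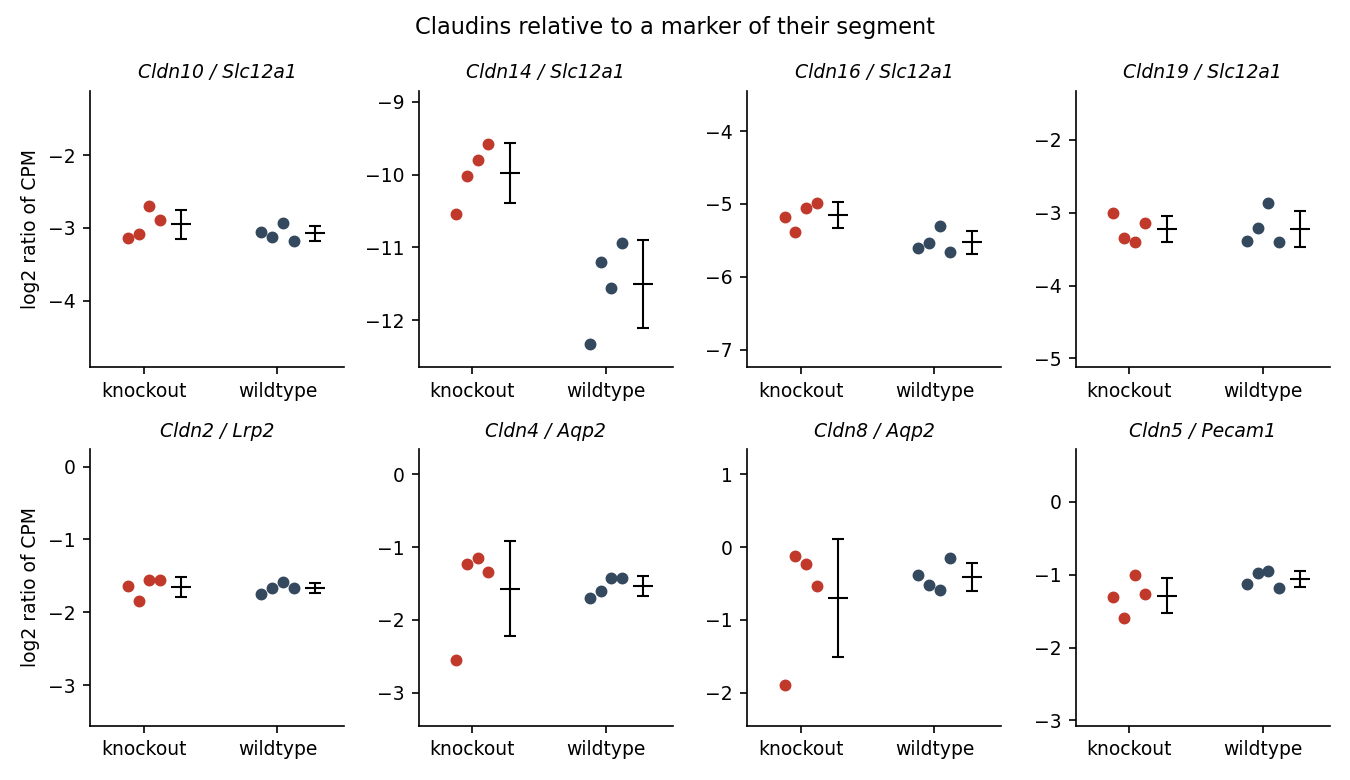
Log2 ratio of a claudin's CPM to that of a segment marker in each library, knockout at left and wildtype at right of each panel, with the mean and SD (n = 4 each). The groups are apart only for Cldn14 to Slc12a1, and knockout 1 is low in both ratios to Aqp2.

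Among the 25 other claudin genes and pseudogenes, 9 had enough counts to be tested. Of these 0 passed with edgeR or DESeq2, 0 had an unadjusted edgeR p under 0.05, and the median log2 fold change was 0.02. Cldn7, a claudin of the distal nephron and collecting duct, averaged 95.2 ± 21.4 TPM in the knockout and 98.8 ± 3.73 TPM in the wildtype, above each of the 10. Cldn6, a claudin of embryonic epithelia, averaged 16.5 ± 2.50 TPM in the knockout and 18.4 ± 1.17 TPM in the wildtype. Cldn11 and Cldn12 came next by TPM. The smallest p-values were those of Cldn11 (log2 fold change 0.13 ± 0.07) and Cldn9 (-0.37 ± 0.22). Of the 9 tested, the groups did not overlap for 1, Cldn11, beside 4.03% of all tested genes. Cldn11 stood at 37.7 to 41.4 CPM in knockout kidneys and 33.9 to 37.5 CPM in wildtype kidneys.

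A list of 27 genes for scaffold, polarity and other junction proteins was tested in full. Of these 0 passed with edgeR or DESeq2. At an unadjusted edgeR p under 0.05 there were 2 of the 27, both lower in knockout, beside 6.18% of all tested genes, so the count is near the background. The median log2 fold change of the list was -0.04. The polarity protein gene Pard6b averaged 58.9 ± 3.97 CPM in the knockout and 67.0 ± 3.74 CPM in the wildtype (log2 fold change -0.19 ± 0.08). For the scaffold gene Tjp3, knockout 1 to 4 held 24.3, 24.0, 24.8 and 25.1 CPM, and wildtype 1 to 4 held 27.5, 26.7, 29.0 and 27.7 CPM. Every knockout library of Tjp3 lay below every wildtype library (log2 fold change -0.18 ± 0.08, edgeR quasi-likelihood test, adjusted p = 0.775). The members with the highest TPM were F11r, a junctional adhesion molecule gene (log2 fold change -0.05 ± 0.08), and Ybx3 (-0.01 ± 0.07).

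Of 16 tested genes known to regulate claudins or paracellular transport, 0 passed with edgeR, and DESeq2 called 2 lower, Kcnj10 and Wnk4. DESeq2 called 0.771% of all genes. Without adjustment, an edgeR p under 0.05 was reached by 2 of the 16 that were higher in knockout and by 3 that were lower. The 2 were Casr and the AP-2 gene Tfap2b (log2 fold change 0.22 ± 0.09). Over all 18548 tested genes 6.18% reach that level, 576 of them higher in knockout and 571 lower. The groups did not overlap for 3 of the 16, Kcnj10, Wnk4 and Klhl3, all lower in knockout, beside 2.06% of all tested genes. Whether the list as a whole exceeds this background was not tested. The potassium channel gene Kcnj10 averaged 67.3 ± 6.80 CPM in the knockout and 93.0 ± 3.64 CPM in the wildtype, and the kinase gene Wnk4 158 ± 13.1 CPM in the knockout and 215 ± 22.3 CPM in the wildtype. Kcnj10, Wnk4 and Klhl3 are also among the 8 listed markers of the distal convoluted tubule. The median log2 fold change of those 8 was -0.45, with all 8 below 0. That value includes Kcnj10, Wnk4 and Klhl3 and is not separate from them. Of the 8, edgeR called 2 lower, Pvalb and Slc12a3, beside 0.0809% of all tested genes.

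The gene most like each claudin was sought by Pearson correlation of log2 CPM over the 8 libraries among 13101 genes with a mean of at least 5 CPM. These libraries share scaling and depth, and the values are descriptions only. For Cldn5, 264 genes exceeded an r of 0.9, the most of the 10. For Cldn16 the nearest was Dhrs13 (r = 0.943), and 7 exceeded 0.9, the fewest. For Cldn1 it was Zbtb14 (r = 0.969) and for Cldn14 it was Rilp (r = 0.965), with 34 and 17 above 0.9.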

How the data were processed

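Strand-specific libraries of kidney RNA from 4 knockout and 4 wildtype samples were grouped by their labels. Salmon, DESeq2 1.14.1 and mm10 are named in the submitters' processing notes, with no annotation release stated. The authors deposited estimated counts per gene, as whole numbers without names, and TPM per gene with identifiers and symbols. Count and TPM lines were matched by order and checked on 13251 genes, where the log2 count-to-TPM ratio varied little between libraries (median SD 0.00064, and 0.28 when shifted by 1 line). All columns were used. The most alike libraries still differed beyond counting noise (chi-square over its degrees of freedom 11.2).

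Genes were filtered (filterByExpr), scaled (TMM) and tested with edgeR 4.0.16 in R 4.3.3 on genotype alone (robust quasi-likelihood). The SE follows from the fold change and its F statistic. The fit was tested on simulated data. Alternatives were RLE and total-count scaling, other filters, DESeq2 1.42.0, limma-voom and limma 3.58.1 on log2 TPM, the replicate block, left-out libraries and left-out ribosomal and mitochondrial lines. Ratios used log2 CPM with a prior count of 2. Intervals cover the spread between libraries. Gene coordinates are from GENCODE M21 (GRCm38).

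The members and lists were chosen with earlier results of these data known. Named are all 10 members, other claudins and list genes by smallest p or highest TPM, and markers beside a result. Vcam1, Casr, Tfap2b and the likeness examples were chosen after their values were seen.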

Additional observations from a re-analysis of the deposited data

Results flagged for a closer look

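In 2 of 38 sets of 4 values 1 library stood far from its group, and chance alone gives about 1.9 such sets (1 in 20). The log2 ratio of Cldn4 to Aqp2 was -2.55 in knockout 1, with -1.35 in the nearest other knockout library. There Aqp2 stood at 478 CPM and Cldn4 at 81.3 CPM. The summed TPM of the 10 claudins was 184 in knockout 2, with 268 in the nearest other knockout library.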

How the results depend on the processing

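In 21 alternatives 0 of the 10 claudins, 0 other claudins and 0 of the 27 junction genes passed, and 203 of 209 claudin values kept their direction. Cldn14 has no value under a filter of 1 CPM in 4 libraries. The 6 reversals were on unscaled TPM, where the median of all genes was -0.11 (pseudocount 1) and -0.14 (0.1): Cldn2 -0.07 and -0.07, Cldn3 -0.02 and -0.03, Cldn16 -0.02 and -0.02. With libraries scaled to an equal median, chosen after seeing the data, none reversed. Over all genes 15 passed, 27 with no filter, 143 with DESeq2, 6 and 6 on TPM with the 2 pseudocounts, 3 without the Xist-rich libraries, and 10 to 52 with each library left out (52 without wildtype 4, 29 without knockout 3, 10 without wildtype 3). The replicate block gave 10, and same-numbered samples share only a number (correlations -0.081 to 0.036).

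For the segment ratios a single one cannot pass after adjustment over 8, so the threshold says nothing about their stability. With the other marker Cldn10 was -0.68, Cldn16 -0.42 and Cldn4 0.05. Cldn19 was 0.00 on log2(TPM + 1) and 0.15 without the Xist-rich libraries. With each library left out Cldn10 ran from 0.03 (without knockout 3) to 0.18 (without knockout 1), Cldn5 from -0.33 (without knockout 3) to -0.13 (without knockout 2), Cldn19 from -0.08 to 0.11, Cldn2 from -0.02 to 0.08, Cldn4 from -0.17 to 0.29 and Cldn8 from -0.48 to 0.11. The cause was not tested. Depth limits Cldn14, with 2 to 22 counts per library.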
